A study of Mus musculus with 12 samples.

Results

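The nuclear genes for subunits of respiratory complexes II, III, IV and V were followed by bulk RNA-seq in islets of Langerhans of mice whose beta cells had lost Taf4, a subunit of the general transcription factor TFIID. The genes were chosen by name alone. They are the symbols of the succinate dehydrogenase genes Sdha to Sdhd, all Uqcr genes, Cyc1, the complex IV genes Cox5a, Cox5b, Cox6b1, Cox6c, Cox7b and Cox7c, and all Atp5 genes, which gave 37 of the 34820 genes in the table. Of these, 34 encode subunits, 4 of complex II, 9 of complex III, 6 of complex IV and 15 of complex V. The other 3 carry an Atp5 name but are not subunits of the enzyme. Atp5s encodes factor B, Atp5sl encodes a related protein, and Atp5l2 is annotated as a pseudogene. Counts of Atp5l2 were between 3 and 8 in every library, and it was the one member that did not pass the filter on low counts, so 36 members were tested.

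Taf4 mutant islets came from Ins1::Cre-ERT2 Taf4 lox/lox mice at 1, 3 or 5 weeks after tamoxifen (TAF4 KO in the labels, strain C57/Bl6), and wild-type islets came from Ins1::Cre-ERT2 Taf4 +/+ mice that also received tamoxifen. Cre is driven by an insulin promoter, and the study reports Taf4 lost from beta cells and kept in glucagon-expressing cells. By lineage tracing at a later time than these, it also reports that beta cells gave rise to most glucagon-expressing cells inside mutant islets. All animals were injected as adults of the same age, islets of a pair of mice made up each replicate and were cultured before RNA extraction, and the labels give no time for the wild type. There were 3 libraries each at 1 week, at 3 weeks and of the wild type, and 2 at 5 weeks (replicates 2 and 3). Replicate 1 at 5 weeks was not analysed here.

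Complex II passes electrons from succinate to ubiquinone and is also an enzyme of the tricarboxylic acid cycle. Complex III carries them from ubiquinol to cytochrome c, complex IV from cytochrome c to oxygen, and complex V, the ATP synthase, uses the proton gradient that complexes I, III and IV build. In beta cells the ATP made in this way closes potassium channels, and that step couples glucose metabolism to insulin release. Complexes III, IV and V also hold subunits encoded in the mitochondrial genome, whereas complex II is entirely nuclear.

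Total counts were between 13865518 and 21581153 per library. Taf4, listed as Taf4a, stood at 27.2 to 37.0 CPM at 1 week, 25.9 to 27.4 CPM at 3 weeks and 21.7 to 27.5 CPM at 5 weeks in mutant islets, against 23.0 to 29.9 CPM in wild type. CPM are counts scaled to library size after TMM normalisation. Reads of the floxed exons are not held apart in this count and Cre is not directed at non-beta cells, so it is no check of the labels. Acinar cell markers, digestive enzyme genes of the exocrine pancreas, took 6.59 to 22.9% of counts at 1 week, 3.19 to 4.44% at 3 weeks and 0.0338 to 0.218% at 5 weeks in mutant libraries, against 27.0 to 48.7% in wild type. Of the 27 acinar markers, 12 fell at 1 week and 27 at both later times, and Prss1 and Prss3 were at 0 in at least 1 library at 5 weeks. Alpha cell markers took 15.9 to 17.8%, 10.7 to 12.5% and 9.25 to 12.7% of counts at 1, 3 and 5 weeks, against 2.24 to 4.13% in wild type, and 6, 2 and 1 of the 8 tested rose. Beta cell markers took 14.0 to 20.9%, 16.7 to 19.3% and 4.81 to 9.57% of counts at 1, 3 and 5 weeks, against 8.94 to 16.2% in wild type. Of the 11 beta cell markers 6, 6 and 7 fell and 1 (Ins2), 1 (Ins2) and 0 rose, with median log2 fold changes of -0.68, -0.998 and -1.36. Of the 6 delta and PP cell markers 4, 3 and 2 rose and 0 fell. Of the 12 leukocyte markers 5, 0 and 1 rose and 0, 2 and 8 fell, of the 11 endothelial and stromal markers 0 rose and 1, 4 and 7 fell, and of the 6 duct markers 1, 0 and 1 rose and 3, 4 and 4 fell. Xist held 24615 to 69939 counts in mutant libraries, against 122 to 389 in wild type, and the sum of 4 Y-linked genes was 0 to 3 counts, against 1599 to 2254. These transcripts part all mutant from all wild-type libraries in the way that sex would, and the labels do not give the sex of the animals. Taf4 genotype and sex therefore cannot be told apart in any comparison with wild type.

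Promoters were matched by symbol in the RefSeq table of GRCm38.p6 for 26 of the 37 members. Not matched were Atp5a1, Atp5f1, Atp5l2, Atp5s, Atp5sl, Cox6c, Cyc1, Sdhc, Uqcrb, Uqcrc2 and Uqcrq. For 23 of the 26, bases after the start were found in a coding transcript of the gene, and not for Atp5g2, Atp5h and Atp5j2. Where a member had several promoters, this check guided the choice. For all genes the first entry was taken, so the 2 sets were not picked alike. Each promoter was read from 250 bases before to 50 bases after the start on both strands for 6 short motifs. The motif of nuclear respiratory factor 1, a known activator of respiratory genes, was searched as GCGCA, any base, then GCGC, and was present in 9 of the 26, or 34.6%, against 4.78% of all 27025 promoters. CCGGAAG, the core bound by ETS factors such as GABP, was present in 10 of 26 (38.5%, against 9.12% of all), and AAGATGGCG, bound by YY1, in 2 of 26 (7.69%, against 1.49%), those of Atp5j and Atp5j2. The box CCAAT was found in 14 of 26 (53.8%, against 37.9%), GGGCGG, bound by Sp1, in 6 (23.1%, against 35.9%) and TATAAA in 1, that of Atp5l (3.85%, against 14.2%). The first motif can read the same on both strands, CCGGAAG and AAGATGGCG can share the letters AAG, and a match describes letters, not binding. The 120 bases before the start are printed for 4 members that rose at 1 week (Sdha, Atp5k, Uqcrh and Uqcr10) and 3 that fell at 3 weeks (Cox5a, Atp5g1 and Atp5b), 5′ to 3′ on the gene's strand, with matches to any of the 6 motifs in capitals.
Sdha (chr13:74350241-74350360, minus strand): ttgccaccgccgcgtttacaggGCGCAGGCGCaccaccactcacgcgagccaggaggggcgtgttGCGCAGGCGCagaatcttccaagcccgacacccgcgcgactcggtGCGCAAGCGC
Atp5k (chr5:108434400-108434519, minus strand): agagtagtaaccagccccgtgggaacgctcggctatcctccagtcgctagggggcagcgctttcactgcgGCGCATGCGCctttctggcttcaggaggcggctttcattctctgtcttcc
Uqcrh (chr4:116075071-116075190, minus strand): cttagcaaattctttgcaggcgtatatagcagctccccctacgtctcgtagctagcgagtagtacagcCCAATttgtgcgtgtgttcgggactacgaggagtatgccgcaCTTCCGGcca
Uqcr10 (chr11:4704345-4704464, minus strand): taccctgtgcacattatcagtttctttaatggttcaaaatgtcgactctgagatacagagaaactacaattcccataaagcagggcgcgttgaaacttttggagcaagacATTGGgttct
Cox5a (chr9:57521112-57521231, plus strand): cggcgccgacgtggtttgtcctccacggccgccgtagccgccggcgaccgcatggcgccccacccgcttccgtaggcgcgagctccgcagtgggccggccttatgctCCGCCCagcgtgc
Atp5g1 (chr11:96075632-96075751, minus strand): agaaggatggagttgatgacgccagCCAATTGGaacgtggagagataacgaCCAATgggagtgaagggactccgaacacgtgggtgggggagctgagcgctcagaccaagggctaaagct
Atp5b (chr10:128083187-128083306, plus strand): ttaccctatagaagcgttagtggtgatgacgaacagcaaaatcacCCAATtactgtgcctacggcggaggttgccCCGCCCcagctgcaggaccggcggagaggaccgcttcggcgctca
The Sdha stretch holds 3 matches to the nuclear respiratory factor 1 motif, and that of Atp5k holds 1, which reads the same on both strands. That of Uqcrh holds CCAAT and, on the other strand, the ETS core. The Uqcr10 stretch ends in a reversed CCAAT, that of Cox5a in a reversed Sp1 motif, that of Atp5g1 holds 3 CCAAT matches, 2 of which overlap on opposite strands, and that of Atp5b holds CCAAT and a reversed Sp1 motif.

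At 1 week, 10 of the 36 members rose and 0 fell by the edgeR quasi-likelihood test with Benjamini-Hochberg adjustment over all genes (adjusted p below 0.05). The members that rose were Sdha of complex II, Uqcr10, Uqcrb and Uqcrh of complex III, Cox6c and Cox7b of complex IV, and Atp5e, Atp5h, Atp5j2 and Atp5k of complex V. That is 27.8% of the members, and 5.34% of all 20180 genes tested rose (4.42% fell). Uqcrb, Cox6c, Atp5j2 and Atp5k also passed a log2 fold change of 1, as did 1.65% of all genes, and no member passed -1, as did 2.92% of all genes. Of the members, 32 had a positive value, the median log2 fold change was 0.51, and the median of all genes was -0.04. The count of 0 fallen members stood at 1 (Atp5b) at an unadjusted p below 0.05 and at 0 with DESeq2. In bulk islets, fewer cells of a type and less RNA per cell cannot be told apart. The marker lists given above moved with this contrast and with those at 3 and 5 weeks, and their part in the results was not tested. With 12 pan-endocrine genes as the scale, the median of all genes became -0.36, that of the members 0.18, and 3 members rose while 1 fell. The count was 4 without 1 week replicate 3, without wild-type replicate 1 or without wild-type replicate 2, and 18 and 19 without 5 week replicates 2 and 3, which share the estimate of the spread.

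At 3 weeks, 3 members rose (Sdha, Cyc1 and Uqcrb) and 5 fell (Uqcrq, Cox5a, Atp5b, Atp5d and Atp5g1). These are 8.33% and 13.9% of the members, beside 8.24% and 7.76% of all genes. The member median was 0.16 and the median of all genes -0.05. Uqcrb passed a log2 fold change of 1 and Cox5a passed -1, as did 1.60% and 5.05% of all genes. Scaled by library totals alone, which moved the median of all genes to 0.61, 21 members rose and 0 fell. Without 5 week replicate 2 or 3 the risen count was 8, and the fallen count was 2 without 3 week replicate 1, 3 week replicate 3 or wild-type replicate 3, and 3 without wild-type replicate 1.

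At 5 weeks, 10 members rose (Sdha and Sdhc, Cyc1, Uqcrc2 and Uqcrq, Cox5b, and Atp5c1, Atp5f1, Atp5g3 and Atp5k) and 0 fell. This is 27.8% of the members, beside 15.0% of all genes that rose and 14.1% that fell. Uqcrq alone passed a log2 fold change of 1, as did 4.26% of all genes. The member median was 0.42 and that of all genes -0.03, and 34 of the 36 members had a positive value. None fell at an unadjusted p below 0.05, and 0 fell with DESeq2. The 2 libraries at 5 weeks differed in these genes: the member median was 0.09 and the count 6 without replicate 2, and 0.70 and 16 without replicate 3. The count was 4 without wild-type replicate 1 or 2, and 35 when scaled by library totals alone, which put the median of all genes at 0.95. The 3 comparisons share the same wild-type libraries. All mutant libraries were above all wild-type libraries in 15.1%, 20.7% and 26.3% of all genes at 1, 3 and 5 weeks. They were below in 15.7%, 19.4% and 28.0%. Of the 36 members, 21, 11 and 11 were separated above the wild type and 1, 6 and 0 below it.

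**Figure D1:**
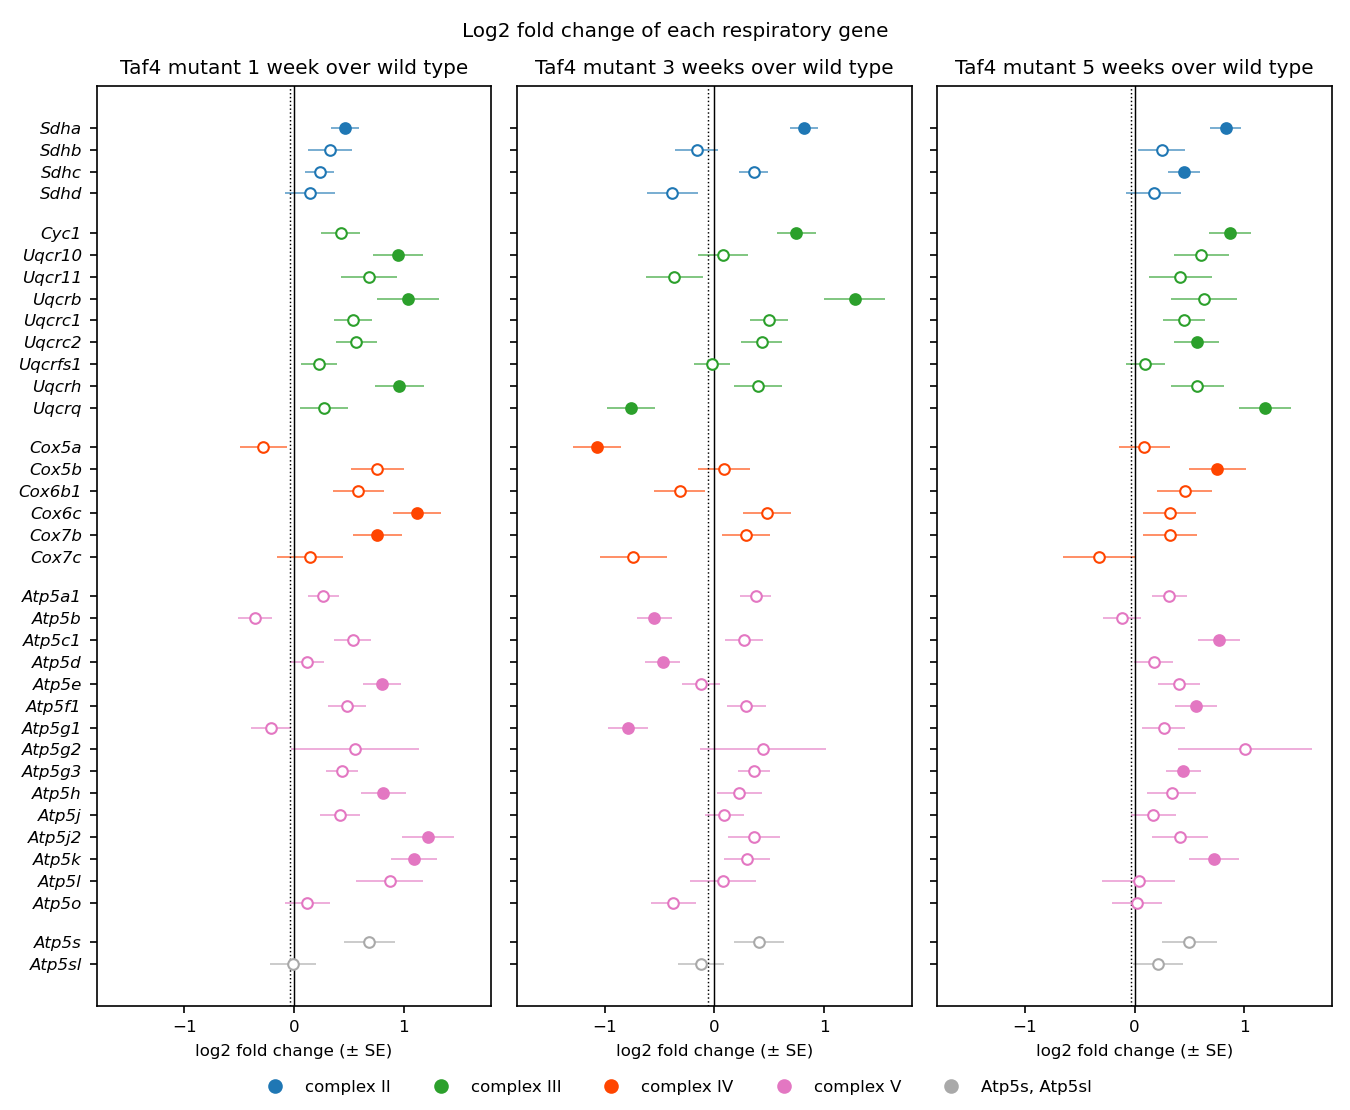
Log2 fold change (x axis, with standard error) of each of the 36 tested members in mutant islets at 1, 3 and 5 weeks over wild type, grouped by complex, filled where the edgeR adjusted p was below 0.05, with the median of all genes dotted. At 1 week 32 of 36 points lie right of 0, at 3 weeks 22 do, and at 5 weeks 34 do.

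Complex II has 4 subunits, and only its flavoprotein passed the test at each time. Sdha (chromosome 13 from 74459702 to 74487728, NCBIM37, minus strand), the subunit that oxidises succinate, had 135, 135 and 163 CPM (1 week), 182, 196 and 175 CPM (3 weeks) and 179 and 193 CPM (5 weeks) in mutant islets, against 102, 104 and 107 CPM in wild type. Every mutant library was above every wild-type library, with log2 fold changes of 0.46 ± 0.13, 0.82 ± 0.13 and 0.83 ± 0.14 (adjusted p by edgeR = 0.0300, 0.000288 and 0.000269). The calls at 3 and 5 weeks were kept under each of the 20 alternative analyses, and that at 1 week was lost under 6 of them, among them without 1 week replicate 3, without wild-type replicate 1 and without wild-type replicate 2. Sdhb, the iron-sulphur subunit (chromosome 4 from 140517118 to 140535108), had 27.8, 39.6 and 39.3 CPM (1 week), 24.4, 25.3 and 26.3 CPM (3 weeks) and 42.2 and 25.1 CPM (5 weeks) in mutant islets, against 28.4, 22.9 and 33.7 CPM in wild type. The groups overlapped at every time, with log2 fold changes of 0.33 ± 0.20, -0.16 ± 0.20 and 0.25 ± 0.22 (adjusted p by edgeR = 0.309, 0.633 and 0.417). Sdhc, one of a pair of membrane anchors, passed at 5 weeks with a log2 fold change of 0.45 ± 0.15 (adjusted p by edgeR = 0.0274). Its 5 week call was lost with replicate numbers as a block and when only the 2 groups compared were fitted. It was also lost without wild-type replicate 1, wild-type replicate 2 or 5 week replicate 3. Sdhd, the other anchor and the lowest of the 4 at each time, had 65.6, 53.2 and 65.9 CPM (1 week), 33.2, 54.9 and 39.8 CPM (3 weeks) and 82.9 and 42.7 CPM (5 weeks) in mutant islets, against 45.9, 48.3 and 72.7 CPM in wild type. Its replicates at 5 weeks lay on either side of the wild-type mean, and it passed at no time (log2 fold changes of 0.15 ± 0.23, -0.38 ± 0.23 and 0.17 ± 0.25 (adjusted p by edgeR = 0.737, 0.288 and 0.645)). The medians of the 4 genes were 0.28, 0.10 and 0.35 at 1, 3 and 5 weeks.

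In complex III, 3 members rose at 1 week, 2 rose and 1 fell at 3 weeks and 3 rose at 5 weeks. Uqcrb (chromosome 13 from 67001553 to 67006314), a ubiquinone-binding subunit, was the highest of the 9 at 1 and 3 weeks. It had 6.85, 5.84 and 8.69 CPM (1 week), 8.98, 6.16 and 10.1 CPM (3 weeks) and 6.29 and 4.48 CPM (5 weeks) in mutant islets, against 2.90, 3.06 and 4.43 CPM in wild type, and no mutant library fell within the wild-type range. The test gave log2 fold changes of 1.04 ± 0.28, 1.28 ± 0.28 and 0.64 ± 0.30 (adjusted p by edgeR = 0.0247, 0.00370 and 0.119), of which the call at 3 weeks was kept under each of the 20 alternatives. At 1 week it was lost with pan-endocrine scaling and without 1 week replicate 3, wild-type replicate 1 or wild-type replicate 2. These are low levels, resting on 31 to 212 counts per library.

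Uqcrq (chromosome 11 from 53241424 to 53244333), a small subunit next to cytochrome b, fell at 3 weeks and rose at 5 weeks. It had 55.0, 50.5 and 71.1 CPM (1 week), 24.8, 36.2 and 25.3 CPM (3 weeks) and 134 and 88.3 CPM (5 weeks) in mutant islets, against 39.2, 39.7 and 67.1 CPM in wild type. All libraries at 3 weeks were below and both at 5 weeks were above all wild-type libraries, whereas the range at 1 week overlapped that of wild type. The test gave log2 fold changes of 0.27 ± 0.22, -0.76 ± 0.22 and 1.19 ± 0.24 (adjusted p by edgeR = 0.462, 0.0251 and 0.00107), and the rise at 5 weeks was kept under each of the 20 alternatives. The call at 3 weeks was lost when scaled by library totals and without 3 week replicate 1, 3 week replicate 3 or wild-type replicate 3. Uqcr10, another small subunit, passed at 1 week only, with 84.0, 82.2 and 115 CPM, against 40.8, 40.3 and 64.6 CPM in wild type, a log2 fold change of 0.95 ± 0.23 (adjusted p by edgeR = 0.0131). Uqcrh, the hinge protein that contacts cytochrome c1, had 58.0, 78.4 and 89.5 CPM at 1 week, against 33.8, 31.7 and 50.8 CPM in wild type, and a log2 fold change of 0.96 ± 0.22 (adjusted p by edgeR = 0.0112). The calls of Uqcr10 and Uqcrh at 1 week were lost with pan-endocrine scaling and without 1 week replicate 3, wild-type replicate 1 or wild-type replicate 2.

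Cyc1 (chromosome 15 from 76173953 to 76176364) encodes cytochrome c1, which hands electrons to cytochrome c. It had 36.2, 56.0 and 45.9 CPM (1 week), 53.9, 65.3 and 53.1 CPM (3 weeks) and 52.1 and 72.9 CPM (5 weeks) in mutant islets, against 33.1, 30.2 and 39.5 CPM in wild type. The range at 1 week overlapped wild type, and every library at 3 and 5 weeks was above it. The log2 fold changes were 0.75 ± 0.18 (adjusted p by edgeR = 0.00715) at 3 weeks, a call lost only with pan-endocrine scaling, and 0.87 ± 0.19 (adjusted p by edgeR = 0.00248) at 5 weeks, kept under all 20 alternatives. At 1 week the value was 0.43 ± 0.18 (adjusted p by edgeR = 0.137). Uqcrfs1, the Rieske iron-sulphur protein, was the lowest of complex III at 1 and 5 weeks and had 34.1, 33.1 and 38.5 CPM (1 week), 32.3, 26.9 and 29.4 CPM (3 weeks) and 36.3 and 28.0 CPM (5 weeks) in mutant islets, against 31.8, 23.6 and 34.7 CPM in wild type. Its groups overlapped at all 3 times, with log2 fold changes of 0.23 ± 0.16, -0.02 ± 0.16 and 0.10 ± 0.18 (adjusted p by edgeR = 0.395, 0.947 and 0.715).

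Uqcrc1, a core subunit on the matrix side, had 34.1, 44.4 and 37.4 CPM (1 week), 36.9, 32.4 and 43.9 CPM (3 weeks) and 29.6 and 43.2 CPM (5 weeks) in mutant islets, against 28.3, 23.3 and 28.6 CPM in wild type. No mutant library was within the wild-type range, and the test passed at no time (log2 fold changes of 0.53 ± 0.17, 0.50 ± 0.17 and 0.45 ± 0.19 (adjusted p by edgeR = 0.0587, 0.0557 and 0.0809)). Uqcrc2, the other core subunit, passed at 5 weeks with 0.57 ± 0.21 (adjusted p by edgeR = 0.0445). Its 2 libraries there had 105 and 58.1 CPM, the lower of which lay inside the wild-type range of 46.8, 51.8 and 66.1 CPM. The call was lost under 8 of the 20 alternatives, among them without 5 week replicate 2 (highest adjusted p over the alternatives 0.771). Uqcr11, a small subunit, passed at no time against wild type (log2 fold changes of 0.68 ± 0.26, -0.36 ± 0.26 and 0.42 ± 0.28 (adjusted p by edgeR = 0.102, 0.374 and 0.281)).

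Of the 6 complex IV members, Cox6c and Cox7b rose at 1 week, Cox5a fell at 3 weeks and Cox5b rose at 5 weeks. Cox5a (chromosome 9 from 57369039 to 57380231), a subunit on the matrix side, had 13.3, 18.1 and 16.3 CPM (1 week), 7.71, 10.7 and 9.14 CPM (3 weeks) and 22.0 and 19.0 CPM (5 weeks) in mutant islets, against 23.6, 12.7 and 21.7 CPM in wild type. Libraries at 3 weeks were all below the wild type, and those at 1 and 5 weeks were not separated from it. The fall at 3 weeks, -1.07 ± 0.22 (adjusted p by edgeR = 0.00253), was lost under 1 of the 20 alternatives, scaling by library totals. The other values were -0.28 ± 0.22 (adjusted p by edgeR = 0.444) at 1 week and 0.09 ± 0.23 (adjusted p by edgeR = 0.806) at 5 weeks.

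Cox6c (chromosome 15 from 35855641 to 35868001), a small membrane subunit, had 33.4, 43.8 and 51.3 CPM (1 week), 27.4, 25.5 and 29.2 CPM (3 weeks) and 33.2 and 16.1 CPM (5 weeks) in mutant islets, against 16.8, 20.3 and 21.9 CPM in wild type. All libraries at 1 and 3 weeks were above the wild type, and those at 5 weeks lay on either side of it. The tests gave log2 fold changes of 1.12 ± 0.22, 0.48 ± 0.22 and 0.32 ± 0.24 (adjusted p by edgeR = 0.00399, 0.153 and 0.335), and the rise at 1 week was kept under each of the 20 alternatives. Cox7b, an X-linked small subunit, rose at 1 week with a log2 fold change of 0.76 ± 0.22 (adjusted p by edgeR = 0.0369), a call lost under 7 alternatives, among them the omission of 1 week replicate 2, 1 week replicate 3, 3 week replicate 1, wild-type replicate 1 or wild-type replicate 2. Cox5b, the zinc-binding subunit, had 12.7, 13.3 and 14.4 CPM (1 week), 9.23, 10.4 and 5.64 CPM (3 weeks) and 14.8 and 12.0 CPM (5 weeks) in mutant islets, against 6.17, 7.11 and 10.6 CPM in wild type. The libraries at 1 and 5 weeks were above all wild-type libraries, and log2 fold changes of 0.76 ± 0.24, 0.09 ± 0.24 and 0.75 ± 0.26 (adjusted p by edgeR = 0.0534, 0.844 and 0.0365) followed. The call at 5 weeks was lost with replicate numbers as a block and without 5 week replicate 2, wild-type replicate 1 or wild-type replicate 2. Cox7c, the lowest member of complex IV at 5 weeks, had 8.21, 6.29 and 10.9 CPM (1 week), 3.68, 5.59 and 4.44 CPM (3 weeks) and 8.47 and 3.84 CPM (5 weeks) in mutant islets, against 7.47, 5.83 and 9.68 CPM in wild type. Its libraries at 3 weeks lay below the wild type, with log2 fold changes of 0.15 ± 0.30, -0.74 ± 0.31 and -0.32 ± 0.34 (adjusted p by edgeR = 0.805, 0.113 and 0.506). Cox6b1, on the intermembrane side, passed at no time against wild type (log2 fold changes of 0.59 ± 0.23, -0.31 ± 0.23 and 0.46 ± 0.25 (adjusted p by edgeR = 0.117, 0.396 and 0.186)).

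Complex V makes ATP at the beta subunits of its F1 head, and the gene of that subunit fell at 3 weeks. Atp5b (chromosome 10 from 127520329 to 127527447) had the highest CPM of the members, at 617, 607 and 728 CPM (1 week), 525, 652 and 534 CPM (3 weeks) and 790.2 and 746 CPM (5 weeks) in mutant islets, against 897, 786 and 812 CPM in wild type. All libraries at 1 and 3 weeks were below all wild-type libraries, and those at 5 weeks overlapped them. The tests gave log2 fold changes of -0.35 ± 0.16, -0.54 ± 0.16 and -0.12 ± 0.18 (adjusted p by edgeR = 0.162, 0.0238 and 0.657). The fall at 3 weeks was kept under 13 of 20 alternatives and lost among others without 3 week replicate 1, 3 week replicate 3, wild-type replicate 1 or wild-type replicate 3, and scaled by library totals it was 0.13. Under that scaling the value at 5 weeks was 0.88 and passed the test, and with no filter on low counts it was 0.02 and did not pass. Atp5a1, the alpha subunit that alternates with beta in the head, had 309, 327 and 333 CPM (1 week), 339, 354 and 352 CPM (3 weeks) and 321 and 348 CPM (5 weeks) in mutant islets, against 234, 255 and 315 CPM in wild type. Its levels at 3 and 5 weeks were above those of wild type, and the test passed at no time (log2 fold changes of 0.27 ± 0.14, 0.38 ± 0.14 and 0.32 ± 0.16 (adjusted p by edgeR = 0.250, 0.0819 and 0.140)).

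The central stalk links the head to the rotor. Its gamma subunit Atp5c1 rose at 5 weeks, with a log2 fold change of 0.77 ± 0.19 (adjusted p by edgeR = 0.00477), with 161 and 97.9 CPM, against 74.2, 69.1 and 84.7 CPM in wild type, and the call was lost only without 5 week replicate 2. Its delta subunit Atp5d fell at 3 weeks, with a log2 fold change of -0.47 ± 0.16 (adjusted p by edgeR = 0.0491), a call lost or turned under 11 of 20 alternatives and 0.23 when scaled by library totals. It was lost without 1 week replicate 1, 1 week replicate 2, 3 week replicate 1, 3 week replicate 3, wild-type replicate 1 or wild-type replicate 3. Its epsilon subunit Atp5e rose at 1 week, with a log2 fold change of 0.80 ± 0.17 (adjusted p by edgeR = 0.00680), with 88.9, 111 and 119 CPM, against 52.1, 56.0 and 74.2 CPM in wild type, and was lost only with pan-endocrine scaling.

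Subunit c forms the rotor ring and is made from 3 genes that encode the same mature protein. Atp5g1 had 13.6, 14.5 and 16.3 CPM (1 week), 8.51, 12.2 and 8.88 CPM (3 weeks) and 23.0 and 18.1 CPM (5 weeks) in mutant islets, against 18.7, 16.7 and 15.9 CPM in wild type. It fell at 3 weeks, where all libraries were below the wild type, with log2 fold changes of -0.21 ± 0.18, -0.79 ± 0.18 and 0.27 ± 0.20 (adjusted p by edgeR = 0.501, 0.00630 and 0.333). Atp5g3 had 78.1, 107 and 88.4 CPM (1 week), 87.2, 85.1 and 87.4 CPM (3 weeks) and 85.1 and 98.3 CPM (5 weeks) in mutant islets, against 62.5, 63.7 and 76.1 CPM in wild type. All mutant libraries were above the wild type, and the test passed at 5 weeks (log2 fold changes of 0.44 ± 0.14, 0.36 ± 0.14 and 0.44 ± 0.16 (adjusted p by edgeR = 0.0604, 0.0947 and 0.0409)), a call lost under 8 of the 20 alternatives, among them without 5 week replicate 3, wild-type replicate 1 or 2, or any 1 of the 3 week replicates. Atp5g2 had 1.17, 0.449 and 0.885 CPM (1 week), 0.720, 1.01 and 0.574 CPM (3 weeks) and 1.27 and 1.03 CPM (5 weeks) in mutant islets, against 0.560, 0.427 and 0.724 CPM in wild type. It had the fewest counts of the ring genes, 6 to 35 per library, with log2 fold changes of 0.56 ± 0.58, 0.45 ± 0.57 and 1.01 ± 0.61 (adjusted p by edgeR = 0.592, 0.646 and 0.225).

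Of the 3 ring genes together, Atp5g1 held 11.9 to 15.4% of their counts at 1 week, 8.83 to 12.4% at 3 weeks and 15.4 and 21.1% at 5 weeks in mutant libraries, against 17.2 to 22.9% in wild type. These are shares of counts, not of protein, and Atp5g1 has the longest annotated transcript of the 3. Reads that fit several loci were not counted, and how many each of the 3 genes lost is not known.

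Subunits e, f and g sit in the membrane part where ATP synthase dimers meet. Atp5j2, subunit f (chromosome 5 from 145944567 to 145952931), had 36.7, 49.9 and 55.0 CPM (1 week), 25.2, 24.0 and 28.9 CPM (3 weeks) and 37.2 and 17.0 CPM (5 weeks) in mutant islets, against 17.9, 17.6 and 25.2 CPM in wild type. All libraries at 1 week were above the wild type, those at 3 weeks overlapped it, and those at 5 weeks lay on either side of its mean. The tests gave log2 fold changes of 1.22 ± 0.24, 0.36 ± 0.23 and 0.42 ± 0.26 (adjusted p by edgeR = 0.00352, 0.325 and 0.237). Atp5k, subunit e (chromosome 5 from 108862263 to 108863467), had 31.9, 39.9 and 39.0 CPM (1 week), 20.6, 20.9 and 22.2 CPM (3 weeks) and 35.1 and 22.1 CPM (5 weeks) in mutant islets, against 12.1, 16.7 and 23.1 CPM in wild type. It rose at 1 and 5 weeks, with log2 fold changes of 1.09 ± 0.21, 0.30 ± 0.21 and 0.72 ± 0.23 (adjusted p by edgeR = 0.00336, 0.370 and 0.0230), and the libraries at 5 weeks were not separated from the wild type. The calls of Atp5j2 and Atp5k at 1 week were kept under each of the 20 alternatives. That of Atp5k at 5 weeks was lost with replicate numbers as a block and when only the 2 groups compared were fitted. It was also lost without 5 week replicate 2, wild-type replicate 1 or wild-type replicate 2. Atp5l, subunit g, passed at no time (log2 fold changes of 0.87 ± 0.30, 0.08 ± 0.30 and 0.04 ± 0.33 (adjusted p by edgeR = 0.0768, 0.894 and 0.945)).

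In the peripheral stalk, which holds the head still, Atp5h (subunit d) rose at 1 week with a log2 fold change of 0.81 ± 0.20 (adjusted p by edgeR = 0.0178) and Atp5f1 (subunit b) rose at 5 weeks with one of 0.56 ± 0.19 (adjusted p by edgeR = 0.0366). Atp5h lost its call with pan-endocrine scaling and without 1 week replicate 3, wild-type replicate 1 or wild-type replicate 2. Atp5f1 lost its call under 7 alternatives, among them without 5 week replicate 2, 3 week replicate 1, 3 week replicate 3, wild-type replicate 1 or wild-type replicate 2. Atp5j (F6) and Atp5o (OSCP) passed at no time, with values from -0.37 ± 0.21 (Atp5o at 3 weeks) to 0.42 ± 0.18 (Atp5j at 1 week). The genes outside the enzyme, Atp5s and Atp5sl, also passed at no time. At 1, 3 and 5 weeks, Atp5s had values of 0.69 ± 0.23, 0.41 ± 0.23 and 0.50 ± 0.25, and Atp5sl had -0.01 ± 0.21, -0.12 ± 0.21 and 0.22 ± 0.23.

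**Figure D2:**
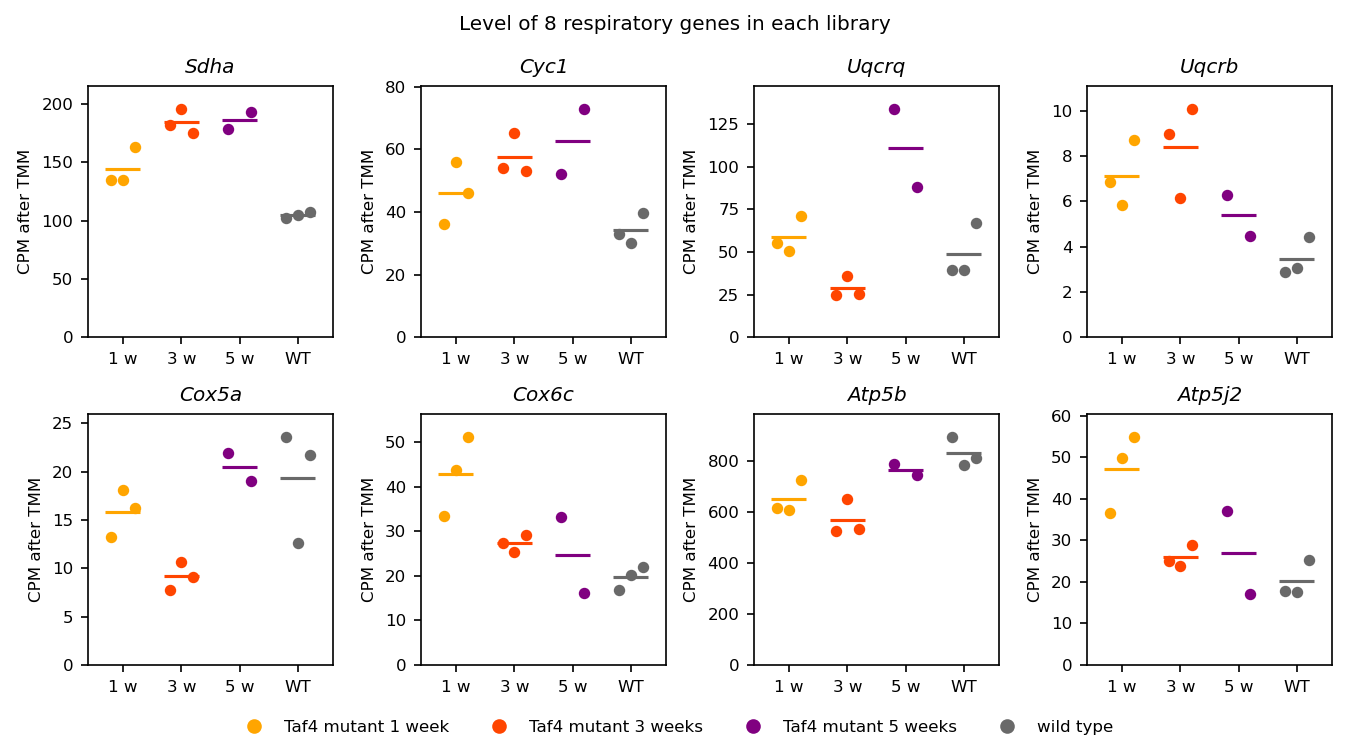
CPM after TMM scaling (y axis) of 8 members in each library, with bars at the group means, for Taf4 mutant islets at 1, 3 and 5 weeks and wild type. Sdha was above wild type in all 8 mutant libraries, Uqcrq was lowest at 3 weeks and highest at 5 weeks, and Cox6c and Atp5j2 were highest at 1 week.

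Among mutant islets, the question was which genes differed between times. At 3 weeks against 1 week, 9 members fell: Uqcr10, Uqcr11 and Uqcrq of complex III, Cox5a and Cox6b1 of complex IV, and Atp5d, Atp5e, Atp5j2 and Atp5k of complex V. They are 25.0% of the members, beside 2.87% of all genes that fell and 0.942% that rose. No member rose by edgeR or DESeq2, and 1 had an unadjusted p below 0.05 with a positive value. Uqcr11 and Uqcrq passed a log2 fold change of -1, as did 1.87% of all genes. Uqcr11 had 12.9, 24.0 and 13.9 CPM at 3 weeks and 30.4, 30.0 and 45.2 CPM at 1 week, a log2 fold change of -1.05 ± 0.26 (adjusted p by edgeR = 0.0274). For Atp5e the value was -0.93 ± 0.17 (adjusted p by edgeR = 0.00506), with 55.2, 58.9 and 53.2 CPM at 3 weeks and 88.9, 111 and 119 CPM at 1 week, and its call was lost under 1 of 20 alternatives, scaling by library totals. The median over the members was -0.49 and that of all genes 0.01. The count was 1 without 1 week replicate 3, 3 week replicate 1 or 3 week replicate 3, 4 without 3 week replicate 2 and 5 without 1 week replicate 2. Scaled by library totals alone, which put the median of all genes at 0.49 and that of the members at 0.0041, 0 fell and 2 rose. With a replicate block 3 fell. No call was kept under every alternative.

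At 5 weeks against 1 week, 1 member rose (Uqcrq) and 2 fell (Cox6c and Atp5j2), beside 7.68% and 8.76% of all genes. None of them passed a log2 fold change of 1 or -1, as did 2.31% and 6.74% of all genes. Uqcrq had 134 and 88.3 CPM at 5 weeks and 55.0, 50.5 and 71.1 CPM at 1 week, a log2 fold change of 0.92 ± 0.24 (adjusted p by edgeR = 0.0119), lost only without 5 week replicate 2. The values of Cox6c and Atp5j2 were -0.80 ± 0.24 (adjusted p by edgeR = 0.0304) and -0.80 ± 0.26 (adjusted p by edgeR = 0.0402). In both, 5 week replicate 3 was the lowest mutant library, and their calls were lost under 6 and 10 of the 20 alternatives. Scaled by library totals alone, which put the median of all genes at 0.81, 20 members rose and 0 fell, and with pan-endocrine scaling, which put it at 0.36, 8 rose and 0 fell. The count of fallen members was 9 without 5 week replicate 2 and 0 without 5 week replicate 3, 1 week replicate 2 or 1 week replicate 3. It was 1 without wild-type replicate 1 or any 1 of the 3 week replicates, which share the estimate of the spread. Since the wild type carries no time label, age and time since the loss of Taf4 cannot be told apart here.

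Ratios of counts between pairs of these genes do not depend on how libraries are scaled. The 5 pairs were chosen after their values had been seen, and exact permutation tests of 3 against 3 libraries cannot go below 0.1 (0.2 for 2 against 3), so they are a description. Atp5b over Atp5a1, beta over alpha of the F1 head, was 2.00, 1.86 and 2.19 (1 week), 1.55, 1.84 and 1.52 (3 weeks) and 2.46 and 2.15 (5 weeks) in mutant libraries, against 3.83, 3.09 and 2.57 in wild type. Every mutant library was below every wild-type library (exact permutation p = 0.1, 0.1 and 0.2, two-sided, the smallest possible). Cyc1 over Cox5a was 2.73, 3.09 and 2.83 (1 week), 6.99, 6.10 and 5.82 (3 weeks) and 2.37 and 3.83 (5 weeks), against 1.40, 2.38 and 1.82 in wild type. Libraries at 1 and 3 weeks were above the wild type, and 1 at 5 weeks was within its range.

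Uqcrq over Uqcr10, both small subunits of complex III, was 0.655, 0.614 and 0.619 (1 week), 0.537, 0.664 and 0.475 (3 weeks) and 1.35 and 1.80 (5 weeks) in mutant libraries, against 0.961, 0.984 and 1.04 in wild type. It was thus lower than wild type in all 6 libraries of the earlier times and higher in both at 5 weeks. Atp5g3 over Atp5g1 averaged 6.19 ± 1.05 at 1 week (SD, n = 3), 9.01 ± 1.80 at 3 weeks (n = 3) and 4.56 ± 1.23 at 5 weeks (n = 2), against 3.98 ± 0.73 in wild type (n = 3). Sdha over Sdhb averaged 4.13 ± 0.73 at 1 week (SD, n = 3), 7.28 ± 0.54 at 3 weeks (n = 3) and 5.97 ± 2.46 at 5 weeks (n = 2), against 3.77 ± 0.71 in wild type (n = 3), and only the libraries at 3 weeks were all outside the wild-type range.

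**Figure D3:**
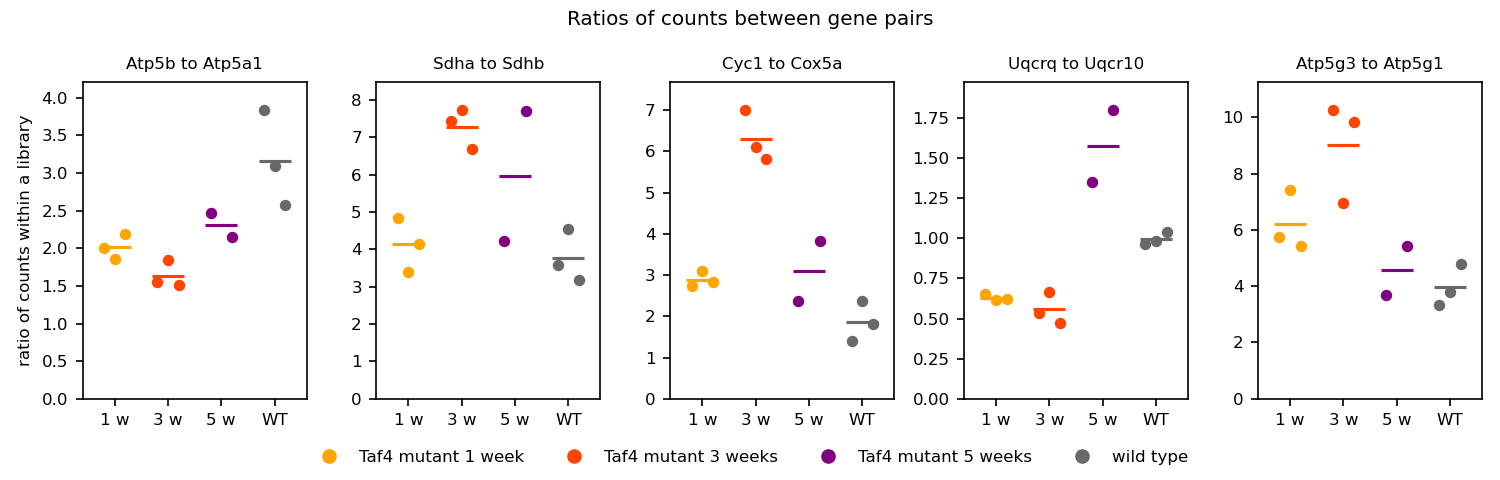
Ratio of counts between 5 pairs of members (y axes) in each library, with bars at the group means, for mutant islets at 1, 3 and 5 weeks and wild type. Atp5b over Atp5a1 lies below wild type in all 8 mutant libraries, and Cyc1 over Cox5a is highest at 3 weeks, at 5.82 to 6.99.

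The length of the transcript moved with some of these differences. The longest coding transcripts of the tested subunits range from 371 bases (Atp5k) to 4715 bases (Atp5g1), and a limit of 1000 bases, set after the data had been seen, leaves 18 shorter and 16 longer ones. At 1 week, 8 of the 18 shorter subunits rose with a median log2 fold change of 0.78, and 2 of the 16 longer ones rose with a median of 0.30, beside 15.9% of all shorter and 5.21% of all longer coding genes that rose. Of those 2, Cox7b has 1001 bases, just past the limit. For all coding genes the medians were 0.33 below the limit, over 1186 genes, and -0.03 above it, over 15755. At 3 weeks against 1 week, 7 of the 18 shorter subunits fell (median -0.73) and 2 of the 16 longer ones fell (median -0.22), beside 12.1% of all shorter (median -0.34) and 2.53% of all longer coding genes (median 0.01). Against wild type at 3 weeks, 1 of the 18 shorter subunits rose and 1 fell (median 0.09). Of the 16 longer ones, 2 rose and 4 fell (median 0.28). Of all shorter coding genes 8.77% rose and 9.36% fell, and of all longer ones 9.01% and 8.63%. At 5 weeks, 3 of the 18 shorter subunits rose (median 0.42) and 7 of the 16 longer ones (median 0.39). Beside them, 17.7% of all shorter and 17.1% of all longer coding genes rose. The part of transcript length in the member results was not tested.

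The 2 libraries at 5 weeks differed in the same way. In replicate 3 over replicate 2, the median log2 ratio of the members was -0.63, with 28 of 36 lower, that of the shorter subunits -0.78, with 17 of 18 lower, and that of the longer ones -0.36. It was 0.06 for all genes, -0.40 for all shorter coding genes, -0.77 for 77 cytosolic ribosomal protein genes and -0.63 for 36 complex I subunit genes. Each value at 5 weeks is a mean over these 2 unlike libraries.

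**Figure D4:**
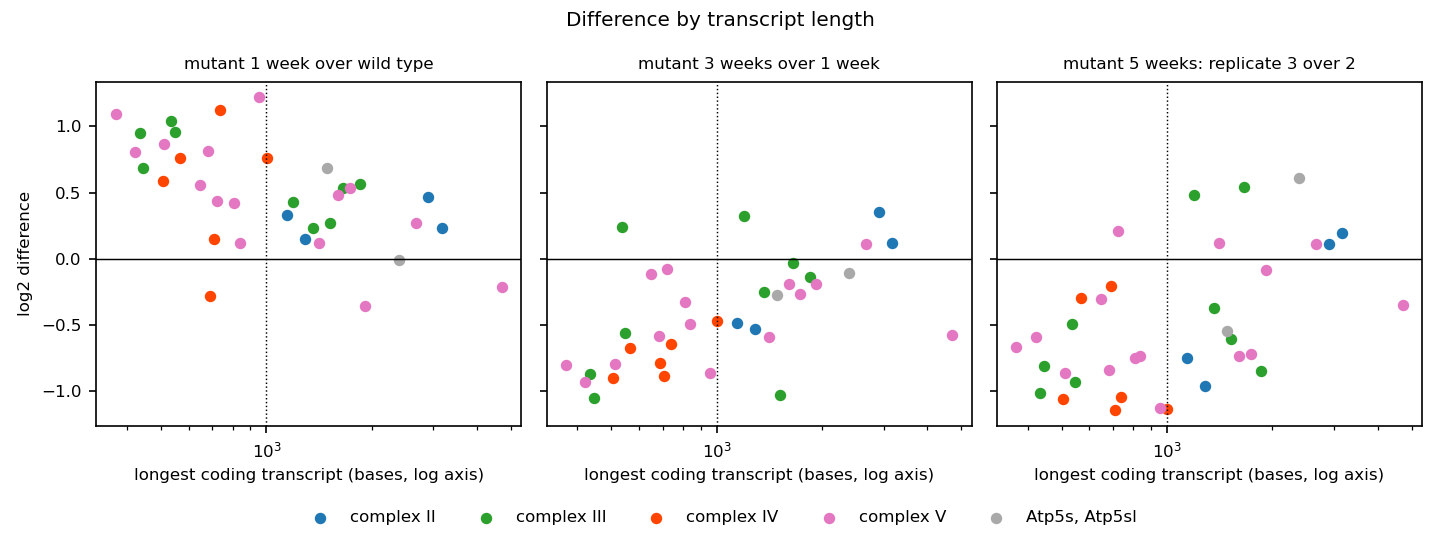
Log2 difference (y axis) of each tested member against the length of its longest coding transcript (x axis, log scale), for mutant at 1 week over wild type, mutant at 3 weeks over 1 week, and replicate 3 over replicate 2 at 5 weeks, with the limit of 1000 bases dotted. Members below the limit had medians of 0.78, -0.73 and -0.78 in the 3 panels.

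The share of counts taken by the members together depended on what it was divided by. Of all counts they took 0.203 to 0.245% at 1 week, 0.256 to 0.294% at 3 weeks and 0.400 and 0.435% at 5 weeks in mutant libraries, against 0.146 to 0.214% in wild type. With acinar marker counts left out, the shares were 0.259 to 0.296%, 0.265 to 0.308% and 0.400 to 0.436% at 1, 3 and 5 weeks, against 0.284 to 0.292% in wild type, and the groups at 1 and 3 weeks then overlapped the wild type. With hormone genes left out as well, they were 0.437 to 0.495%, 0.399 to 0.435% and 0.467 to 0.563%, against 0.362 to 0.396% in wild type, and no mutant library was within the wild-type range. Atp5b had the most counts of the members in every library, so it weighs most in all these shares. Its log2 fold changes at 1, 3 and 5 weeks were -0.35, -0.54 and -0.12. Shares without Atp5b were not computed. In the fit without acinar markers, the member medians at 1, 3 and 5 weeks were 0.55, 0.18 and 0.45. In the fit without acinar and hormone genes, an alternative added after seeing the data, they were 0.51, 0.16 and 0.42.

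**Figure D5:**
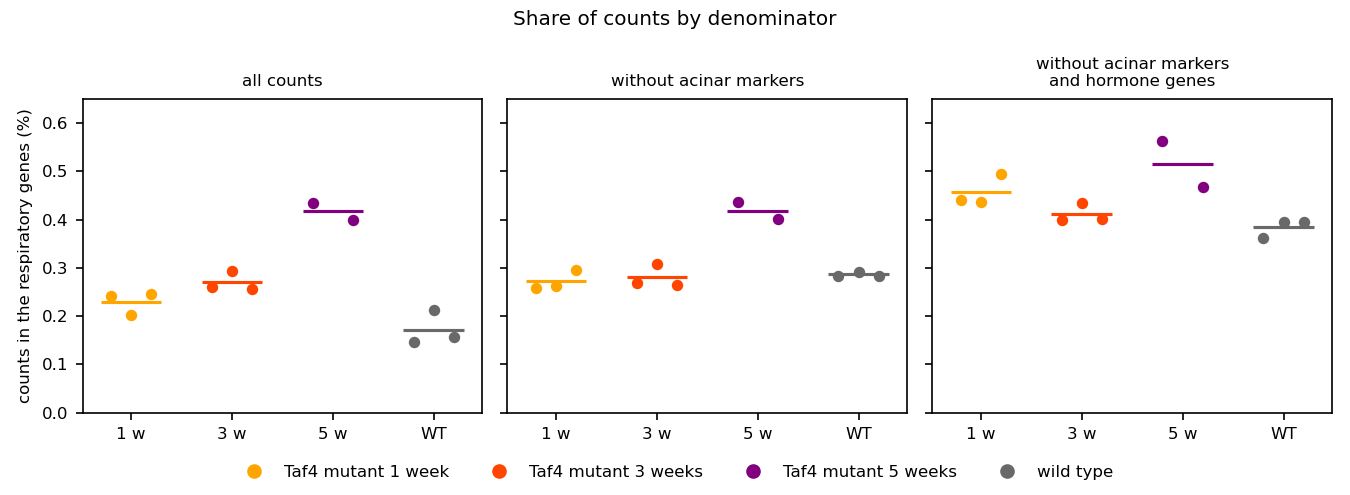
Counts of the members as a percentage of all counts, of counts without acinar markers, and of counts without acinar markers and hormone genes (y axis), in each library of mutant islets at 1, 3 and 5 weeks and of wild type, with bars at the group means. The libraries at 5 weeks are highest in the first 2 panels, at 0.400 to 0.436%, and in the third panel all 8 mutant libraries lie above the wild type.

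Other genes of the pathway were read from lists chosen by function. Of 8 nuclear subunits of complexes II to V that the name rule does not reach, 6 rose at 1 week, 0 passed at 3 weeks (2 at an unadjusted p below 0.05) and 5 rose at 5 weeks, with medians of 0.68, 0.17 and 0.64. The highest at each time was 2010107E04Rik, at 1.31 (edgeR adjusted p = 0.00276), 0.51 (adjusted p = 0.168) and 0.99 (adjusted p = 0.00905). The lowest were Cox6a1 at 1 week (0.42), Usmg5 at 3 weeks (-0.10) and Ndufa4 at 5 weeks (0.20), and none of these 3 values passed the test.

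Complex I, which feeds the same ubiquinone pool from NADH, had 36 nuclear subunits tested. Of these 16 rose at 1 week, 6 rose and 1 fell at 3 weeks, and 19 rose and 1 fell at 5 weeks, with medians of 0.58, 0.20 and 0.62. Ndufb6 was the highest at each time, at 1.24, 1.03 and 1.63 (edgeR adjusted p = 0.00414, 0.00716 and 0.000149). Ndufa13 was the lowest at 3 weeks (-0.86, adjusted p = 0.0129). For the members the medians were 0.51, 0.16 and 0.42.

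Assembly factors and inhibitors of complexes II to V numbered 26. They rose in 3, 4 and 11 cases at 1, 3 and 5 weeks, with medians of 0.12, 0.21 and 0.44. Sdhaf1, an assembly factor of complex II, was the highest at 3 and 5 weeks, at 1.05 (edgeR adjusted p = 0.0444) and 2.13 (adjusted p = 0.000268), and at 1 week the highest was Fam36a at 2.06 (adjusted p = 0.0793). The lowest were Cox10 (-0.12), Cox11 (-0.76) and Cox16 (-0.21) at 1, 3 and 5 weeks, none past the threshold.

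Of the 7 genes of electron and nucleotide carriers, 1, 1 and 5 rose at 1, 3 and 5 weeks, with medians of 0.27, 0.38 and 0.74. Slc25a4, an ADP/ATP carrier of the inner membrane, was the highest at 1 and 3 weeks (0.73 and 0.78, edgeR adjusted p = 0.00758 and 0.00246), and Vdac1, a channel of the outer membrane, at 5 weeks (1.72, adjusted p = 1.35e-07). Slc25a5 was the lowest each time, at -0.21, -0.52 and -0.0029, and did not pass. Of 15 enzymes of the tricarboxylic acid cycle, 1, 2 and 5 rose, with medians of 0.22, 0.17 and 0.30. The highest was Fh1, fumarate hydratase, the step after complex II, at 0.67, 0.64 and 0.96 (edgeR adjusted p = 0.0190, 0.0158 and 0.000831). Suclg2 was the lowest at 1 and 3 weeks (-0.31 and -0.38) and Ogdh at 5 weeks (-0.05), none past the threshold.

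Among 11 regulators of mitochondrial biogenesis, 1 rose and 1 fell at 1 and at 3 weeks, and 2 rose and 1 fell at 5 weeks. The one that fell was Ppargc1a, which encodes the coactivator PGC-1alpha, at -1.31, -1.47 and -2.36 (edgeR adjusted p = 0.00525, 0.000962 and 2.78e-05). The highest were Tfb1m at 1 week (0.74, adjusted p = 0.0451), Tfam at 3 weeks (0.59, adjusted p = 0.0477) and Gabpb1, a subunit of GABP, at 5 weeks (0.92, adjusted p = 0.00134). Their median log2 fold changes were -0.06, -0.07 and 0.13.

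Of the mitochondrial genes of complexes III to V only mt-Co1 and mt-Cytb could be tested. mt-Co1 encodes the catalytic subunit of complex IV and mt-Cytb the cytochrome b of complex III. Over wild type, their log2 fold changes were 0.74 and 0.51 (1 week), 0.86 and 0.57 (3 weeks) and 0.10 and -0.70 (5 weeks), and none passed (lowest edgeR adjusted p = 0.100). At 5 weeks against 1 week mt-Cytb fell by 1.22 (adjusted p = 0.0205), and the summed share of the mitochondrial genes of complexes III to V was 1.58% of counts in 5 week replicate 2 and 0.495% in replicate 3.

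Ribosomal protein genes, also encoded by short transcripts, are set beside the members for scale. Of 77 cytosolic ones, 14 rose and 1 fell at 1 week, 0 rose and 12 fell at 3 weeks and 4 rose and 0 fell at 5 weeks, with medians of 0.42, -0.28 and 0.26, and at 3 weeks against 1 week 33 fell (median -0.75). Of 72 mitochondrial ones, 9 rose at 1 week, 10 rose and 3 fell at 3 weeks and 33 rose at 5 weeks, with medians of 0.37, 0.23 and 0.55.

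Different genes are set beside each other here per length, as mean CPM per kilobase of the longest coding transcript. Reads that fit several loci were not counted, so genes with processed pseudogenes can lose reads whatever their length. The order below is therefore one of counts per length, not of transcript levels. Atp5b was first of the 36 in every group, at 339.7 at 1 week, 297.6 at 3 weeks and 401 at 5 weeks in mutant islets, against 434 in wild type, and its lowest library was above the highest library of any other member in each group. Atp5e was second in every group, at 252, 132 and 191, against 144 in wild type. Uqcr10, Atp5a1, Atp5g3 and Uqcrh took the next 4 places in each group in differing order. In wild type, Uqcr10 had 94.1, 92.9 and 149, Atp5a1 had 87.6, 95.2 and 118 and Atp5g3 had 86.4, 88.0 and 105 CPM per kilobase, so these neighbours were not separated. Sdha was 15th at 1 week, 8th at 3 weeks and 14th at 5 weeks, against 16th in wild type, and Uqcrq was 21st, 26th and 12th, against 17th. The last 3 places were held by Atp5sl, Atp5g1 and Atp5g2 in every group, where the 4715 bases taken for Atp5g1 lower its value per kilobase.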

How the data were processed

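Islet RNA was measured by bulk RNA-seq after linear amplification of total RNA. Per the labels and the study's methods, the authors used bcl2fastq 2.17.1.14 for demultiplexing and cutadapt 1.10 for trimming, removed ribosomal reads with Bowtie2 2.2.8, aligned to mm9 with STAR 2.5.3a and counted unique, unambiguous reads per Ensembl gene with HTSeq. Reads that fit several loci were dropped, and small respiratory subunits have processed pseudogenes, so their levels carry that uncertainty. Use of strand is not given in the sources used here. The counts deposited are raw and whole. Signal columns deposited beside them, normalised counts over transcript length, were used only to check the size factors. Columns of the authors' own comparisons (log2 fold changes and p-values) were left aside.

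Counts were analysed in R 4.3.3 with edgeR 4.0.16. filterByExpr kept 20180 of 34820 genes, libraries were scaled by TMM, and all 4 groups entered 1 quasi-likelihood fit, from which 5 comparisons were taken, with Benjamini-Hochberg adjustment over all genes. Errors given with ± are standard errors for log2 fold changes and SDs where so named. P-values test group differences against the spread between these libraries of pooled animals, estimated over all 4 groups. The script was tested on simulated counts. DESeq2 1.42.0 was one of 20 alternatives. Coordinates and transcript lengths came from GENCODE M1 on NCBIM37 (mm9), which holds 34484 of the 34820 identifiers, and promoters from RefSeq on GRCm38.p6. Members, lists and the rule for genes given in full (catalytic, heme, iron-sulphur and ring subunits, and the highest and lowest member of each complex against wild type) were chosen with earlier results of these data known. Other lists are given by counts, medians and their highest and lowest member, of which 1 is not reported here.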

Additional observations from a re-analysis of the deposited data

Results flagged for a closer look

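Members whose level differed between mutant times were looked at again. The test at 3 or 5 weeks against 1 week compares mutant libraries only. With 1 wild-type group that carries no time label, it cannot part a changing effect of Taf4 loss from a change with age. At 3 weeks over 1 week the log2 differences were -0.87 for Uqcr10, -1.05 for Uqcr11, -1.03 for Uqcrq, -0.79 for Cox5a, -0.90 for Cox6b1, -0.59 for Atp5d, -0.93 for Atp5e, -0.86 for Atp5j2 and -0.80 for Atp5k. At 5 weeks over 1 week they were 0.92 for Uqcrq, -0.80 for Cox6c and -0.80 for Atp5j2. Of the 9 genes at 3 weeks over 1 week, 7 have a longest coding transcript of at most 1000 bases, and those of Uqcrq and Atp5d are longer. The part of transcript length, of age and of the acinar share in these differences was not tested. Each group held 2 or 3 libraries, too few for a test for single outlying libraries.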

How the results depend on the processing

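In the order risen at 1, 3 and 5 weeks over wild type, the counts of members were 10, 3 and 10, and the fallen counts were 0, 5 and 0; at 3 weeks over 1 week 0 rose and 9 fell, and at 5 weeks over 1 week 1 rose and 2 fell. Leaving out 1 library at a time (without each replicate) gave 4 to 19 risen at 1 week, 3 to 8 at 3 weeks and 4 to 16 at 5 weeks, 2 to 5 fallen at 3 weeks, 1 to 11 fallen at 3 weeks over 1 week, and 1 to 2 risen and 0 to 9 fallen at 5 weeks over 1 week. The fallen counts at 1 and 5 weeks and the risen count at 3 weeks over 1 week stayed at 0. Scaled by library totals only, which puts the median of all genes at 0.61 at 3 weeks and 0.95 at 5 weeks, 21 rose and 0 fell at 3 weeks, 35 rose at 5 weeks, 2 rose and 0 fell at 3 weeks over 1 week, and 20 rose and 0 fell at 5 weeks over 1 week. Under that scaling Atp5b stood at 0.13 at 3 weeks and 0.88 at 5 weeks, Atp5d at 0.23 and Uqcrfs1 at 0.69 at 3 weeks, and at 5 weeks over 1 week Atp5o stood at 0.70, Cox5b at 0.79, Cox6c at 0.0005, Sdhb at 0.73, Uqcrc1 at 0.75 and Uqcrfs1 at 0.66. Pan-endocrine scaling, which moves the median of all genes to -0.36 at 1 week and -0.41 at 3 weeks, gave 3 risen and 1 fallen at 1 week, 9 fallen at 3 weeks, and 8 risen and 0 fallen at 5 weeks over 1 week. With no filter on low counts, 22, 10 and 18 rose at 1, 3 and 5 weeks, 3 fell at 3 weeks and 2 rose at 5 weeks over 1 week. The DESeq2 Wald test called 17 risen at 1 week and 6 at 3 weeks. Fitting only the 2 groups compared gave 9 risen at 3 weeks, 5 at 5 weeks and 0 fallen at 5 weeks over 1 week. Why the counts moved under these settings was not tested. In all these settings the member median exceeded that of all genes against wild type, by 0.44 to 0.61 at 1 week, 0.11 to 0.39 at 3 weeks and 0.13 to 0.76 at 5 weeks.

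The labels share replicate numbers between groups, and deviations of same-numbered libraries from their group means correlated at -0.12 to 0.19 over all genes. Libraries with different numbers were not compared in this way, so these values do not settle whether the numbers pair the samples. With a replicate block, 4 members rose at 5 weeks, 3 fell at 3 weeks and 3 fell at 3 weeks over 1 week, and no other count moved by over 1.5 times. Low levels limit Atp5g2 (6 to 35 counts per library) and Uqcrb (31 to 212), and Atp5l2 could not be tested.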
